A study of Mus musculus with 2 samples.

Results

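The microRNA (miRNA) genes described here are Mir106b, Mir93 and Mir25, which lie together in an intron of Mcm7, and Mir92b, a gene elsewhere in the genome that shares its seed with Mir25. They were taken by symbol, and all 4 had a row among the 1973 genes of the count tables. The libraries were made from total RNA of mouse forebrain at embryonic day 16.5, from pools of healthy B6NCrl embryos of both sexes, with a labelled size range of <30 and no unit given. There are 2 libraries, labelled biological replicates 1 and 2, and both belong to a single group without treatment, so no comparison between conditions exists. The label of replicate 2 gives 41 embryos in the pool, and the label of replicate 1 gives no number. The pools have separate biosample records and share a single donor record, so the spread between the replicates describes these pools only. In whole tissue, fewer cells of a type and less RNA per cell cannot be told apart.

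A miRNA gene is transcribed as a longer RNA that folds into a hairpin, from which a short mature strand is cut and loaded into an Argonaute protein. The loaded strand finds messenger RNAs mainly by its seed, the stretch from base 2 to base 8, and lowers their translation and stability. Mcm7 encodes a subunit of the helicase that opens DNA at replication, and dividing cells express it. The miRNAs of its intron belong to the same superfamily as the Mir17 to Mir92 cluster and are known to act in neural stem and progenitor cells, with the cell cycle inhibitor Cdkn1a among the targets of miR-106b and miR-93, and the cell cycle inhibitor Cdkn1c among those of miR-25. miR-92b is known as a miRNA of neural progenitors, and the miR-92 family represses Eomes, a transcription factor of intermediate progenitors in the cortex.

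The mature sequences fall into 2 seed groups, and they are shown because the seed decides which member is set beside which. All sequences are from RefSeq (GRCm38.p6), where all 4 genes were found, and each is written from its 5′ end with the seed in capitals. The first group shares the seed of miR-17, and the sequences shown are cut from the 5′ arm of the hairpin. Its members in the Mcm7 intron are given with miR-17-5p and miR-20a-5p for comparison.
miR-106b-5p: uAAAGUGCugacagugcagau
miR-93-5p: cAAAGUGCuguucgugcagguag
miR-17-5p: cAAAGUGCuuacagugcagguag
miR-20a-5p: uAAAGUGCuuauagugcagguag

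The second group shares the seed of miR-25, and the sequences shown are cut from the 3′ arm, whereas miR-32-5p carries this seed on the 5′ arm. miR-25-3p and miR-92b-3p are given with miR-92a-3p, which the genes Mir92-1 and Mir92-2 both encode.
miR-25-3p: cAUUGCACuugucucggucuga
miR-92b-3p: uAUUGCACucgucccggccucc
miR-92a-3p: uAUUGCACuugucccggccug

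Outside the seed the members were less alike. Compared base by base from the 5′ end over the shorter length, miR-106b-5p and miR-93-5p were identical at 16 of 21 bases. Their 5 differences, with the base of miR-106b-5p first and positions counted from its 5′ end, were U1C, A11U, C12U, A13C and A20G. miR-25-3p and miR-92b-3p were identical at 16 of 22 bases. miR-25-3p was closer to miR-92a-3p, at 18 of 21 bases, and miR-92b-3p was closer still to miR-92a-3p, at 19 of 21 bases with the differences C10U and C21G.

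The hairpins are shown because the count of a gene sums reads from both arms, and each hairpin below has 2 annotated mature strands, marked in capitals. The tables do not separate the arms, so no value here belongs to one of them alone.
Mir106b: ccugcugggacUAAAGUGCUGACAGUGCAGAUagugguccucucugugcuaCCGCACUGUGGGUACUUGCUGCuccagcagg
Mir93: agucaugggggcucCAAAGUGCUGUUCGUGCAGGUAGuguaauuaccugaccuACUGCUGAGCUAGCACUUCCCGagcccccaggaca
Mir25: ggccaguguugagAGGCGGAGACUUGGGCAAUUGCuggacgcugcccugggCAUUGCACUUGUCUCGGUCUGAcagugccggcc
Mir92b: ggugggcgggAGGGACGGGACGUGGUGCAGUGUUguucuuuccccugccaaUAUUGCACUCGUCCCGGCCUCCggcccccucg

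The seeds of the less known arms, miR-106b-3p, miR-93-3p, miR-25-5p and miR-92b-5p, occurred in no other mature sequence among the 1738 of the RefSeq table. The hairpin of Mir92b had the highest GC content of the members at 67.5%, against 63.1% for Mir25, 57.3% for Mir106b and 55.7% for Mir93. Its predicted minimum free energy was also the lowest at -52.7 kcal/mol, against -46.3 for Mir93, -41.0 for Mir106b and -35.9 for Mir25 (RNAfold).

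None of the members' mature sequences occurred whole in another hairpin of the RefSeq table, and none of their hairpins shared a stretch of 18 bases with another. The longest stretch shared with another hairpin was 13 bases for Mir106b (with Mir18a) and for Mir93 (with Mir20a), and 12 bases for Mir25 (with Mir92-1 and Mir92-2, among others) and for Mir92b. In 141767 annotated transcripts, whole mature sequences of Mir93 and Mir25 were also present in Mcm7 itself, in a transcript that retains the intron, and no other gene held one. The exon of that transcript covers the same genomic bases as Mir93 and Mir25, so it is not a further locus. A copy elsewhere would bear on the counts, because the tables keep reads with several possible loci in a row of their own, outside the genes. A copy outside annotated transcripts was not looked for, since no genome sequence was used here. By contrast, the whole of miR-92a-3p is present in both Mir92-1 and Mir92-2, so reads of exactly that sequence have no unique place. The counts of those genes leave out an unknown part of that miRNA and are uncertain.

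On the mm10 assembly, by the GENCODE M21 annotation, Mir106b (ENSMUSG00000065514.1) lies on the minus strand at chr5:138165737-138165818. Mir93 (ENSMUSG00000065527.1) lies at chr5:138165523-138165610 and Mir25 (ENSMUSG00000065394.1) at chr5:138165321-138165404, on the same strand. All 3 are within intron 13 of a protein-coding Mcm7 transcript with 15 exons, and this intron is 748 bases long. In the direction of transcription Mir106b comes first, 91 bases into the intron, followed after 126 bases by Mir93 and after a further 118 bases by Mir25, so that the cluster spans 498 bases. Mir93 and Mir25 also overlap an exon of the transcript that retains the intron. Mir92b (ENSMUSG00000076255.2) lies at chr3:89227116-89227198 on the minus strand and overlaps no other annotated gene. Its closest neighbour is Mtx1 on the same strand, 27 bases away.

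The gene-strand total, the count on the strand of the annotated genes, was 5060112 in replicate 1 and 4158686 in replicate 2. Of 11 forebrain markers 10 had a row and all 10 had counts, summing to 21790 and 20212 CPM (counts in 1000000 counts of the gene-strand total). Their mean levels were very uneven, from 1.07 CPM for Mir124a-3, with 6 and 4 counts, to 12348 CPM for Mir137. Among markers of other cells, endothelial Mir126a stood at 16611 CPM in replicate 1 and 18999 CPM in replicate 2, and 5 epithelial genes summed to 1804 and 2508 CPM. Erythroid, myeloid, muscle and liver markers summed to at most 281 CPM each in either library. Only 1 of 2 myeloid genes had a row and the liver list is a single gene, so these values come from 1 gene each. Of the 5 muscle genes with a row, Mir206 was the highest at a mean of 22.0 CPM, and Mir1a-1, Mir133a-1 and Mir133a-2 were at 0 in both. Reads with several possible loci are not counted in any gene. Whether this lowered the counts of the marker genes was not checked. Zeros, and low counts such as those of Mir124a-3, therefore do not show that a miRNA was absent or scarce. Mir124a has several gene copies in the marker list, and the marker sums hold for uniquely placed reads only. In CPM, which uses no scaling factors, the endothelial, epithelial, myeloid and muscle sums were higher in replicate 2 and the forebrain, erythroid and liver sums were lower. Small differences can change sign under the scaling used below to compare the libraries, and these sums were not recomputed with it. Their part in the results below was not tested.

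Mir93 and Mir106b were abundant in both libraries, Mir92b was intermediate and Mir25 was far lower. Mir93 had 77084 counts in replicate 1 and 61751 in replicate 2, which is 15234 and 14849 CPM, a mean of 15041 ± 272 CPM (SD, n = 2). Mir106b had 48872 and 43780 counts, or 9658 and 10527 CPM, a mean of 10093 ± 615 CPM. The lower value of Mir93 was above the higher value of Mir106b, so these neighbours in the intron did not overlap.

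Mir92b had 19789 counts in replicate 1 and 17216 in replicate 2, or 3911 and 4140 CPM, a mean of 4025 ± 162 CPM. Mir25 had 3363 and 2696 counts, or 665 and 648 CPM, a mean of 656 ± 11.5 CPM. Exact Clopper-Pearson 95% intervals for Mir25 were 642 to 687 CPM in replicate 1 and 624 to 673 CPM in replicate 2, and they cover counting error only. No read fell on the opposite strand of any of the 4 genes in either library. The order Mir93, Mir106b, Mir92b, Mir25 held in both libraries with no overlap between neighbours. The annotated genes are 82 to 88 bases long. Expressed as CPM per kilobase of gene, the mean levels were 170922 for Mir93, 123083 for Mir106b, 48497 for Mir92b and 7815 for Mir25, in the same order.

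Among the 703 genes with a gene-strand count in either library, Mir93 ranked 14th and Mir106b 21st by mean CPM, while Mir92b ranked 43rd and Mir25 104th. Most of their neighbours in this order lay within the spread. Mir106b lay beside Mir20a, at 10089 ± 407 CPM, and in replicate 1 Mir20a was the higher of them at 10377 CPM, while in replicate 2 it was the lower at 9801 CPM. Mir25 lay between Mir337 at 660.1 ± 202 CPM and Mir34c at 649.7 ± 20.3 CPM, and differed from both by less than their SD. Mir92b lay between Mir139 at 4238 ± 700.0 CPM and Mir382 at 3947 ± 1038 CPM, again within their SD. Mir93, by contrast, lay below Mir26b at 16226 ± 398 CPM by more than either SD, and above Mir181c at 14588 ± 531 CPM by less than the SD of that gene. Mir322, the gene above Mir106b, was at 11443 ± 1049 CPM and did not overlap it in either library. With 2 libraries of a single group, no pattern across conditions can be matched between genes.

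**Figure D1:**
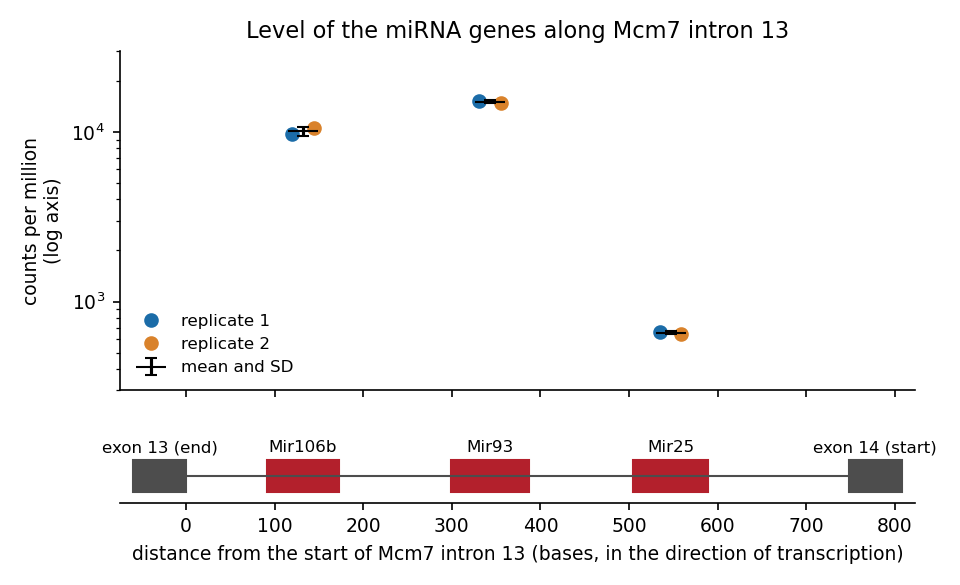
Upper panel: level of each miRNA gene of Mcm7 intron 13 in CPM, on a log axis, with replicate 1 and replicate 2 as points and the mean and SD in black. Lower panel: position of the genes in bases from the start of the intron, with the flanking exons drawn only in part. Mir25, the last of the hairpins, sits at 656 CPM, below Mir93 at 15041 and Mir106b at 10093.

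Ratios between the 3 genes of the intron were taken within each library and so do not depend on how the libraries are scaled. Mir93 was higher than Mir106b by 1.58-fold in replicate 1 (exact 95% interval 1.56 to 1.60) and by 1.41-fold in replicate 2 (1.39 to 1.43). The intervals did not overlap, and the ratio in replicate 2 differed from that in replicate 1 by -10.6%. Mir25 was lower than Mir93 by 22.9-fold in both replicates, with exact 95% intervals of 22.1 to 23.7 and 22.0 to 23.8. Mir25 was lower than Mir106b by 14.5-fold in replicate 1 (14.03 to 15.05) and by 16.2-fold in replicate 2 (15.6 to 16.9). The intervals of the ratio of Mir93 to Mir25 overlapped between the libraries, while those of both ratios with Mir106b did not.

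In shares of the intron cluster, Mir93 held 59.6% in replicate 1 and 57.1% in replicate 2. Mir106b took 37.8% and 40.5%, and Mir25 took 2.60% and 2.49%. The cluster as a whole took 2.58% ± 0.0331 of all gene-strand counts (SD, n = 2), and with Mir92b the members took 2.98% ± 0.0493. Mir92b exceeded its seed relative Mir25 by 5.88-fold in replicate 1 (exact 95% interval 5.67 to 6.11) and by 6.39-fold in replicate 2 (6.13 to 6.65).

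The seed groups put the members beside their relatives in the paralogous clusters. The miR-17 seed, shared by 6 genes of the list, held 6.26% ± 0.116 of all gene-strand counts, and Mir106b and Mir93 together supplied 39.3% of that group in replicate 1 and 41.1% in replicate 2. Mir17, the founding gene of the superfamily, was the most abundant of the group at 27023 ± 1052 CPM. Mir93 supplied 24.0% of the group in both libraries, with exact 95% intervals of 23.9% to 24.2% in each. The genes of the X chromosome cluster, Mir106a at 211 ± 19.9 CPM and Mir20b at 137 ± 25.6 CPM, were the lowest. miR-17-5p and miR-106a-5p are identical at 22 of 23 bases, and the aligner is not given. How reads were divided between such close relatives is therefore not known, and these shares hold for reads as they were placed. Another gene with this seed, Mir6383, named after its values were seen, had no count in either library.

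The miR-25 seed group was smaller, at 0.744% ± 0.0388 of all gene-strand counts over 7 genes, and Mir92b supplied more than any other gene of it. Mir92b took 54.6% of the group in replicate 1 and 53.6% in replicate 2, with exact 95% intervals of 54.0% to 55.1% and 53.1% to 54.2%. Mir25 took 9.27% and 8.40%. Mir92-1, of the Mir17 to Mir92 cluster, had 2140 and 2444 CPM, a mean of 2292 ± 215 CPM, between Mir92b and Mir25 in both libraries. Mir92-2, its copy on the X chromosome, was at 74.9 ± 8.98 CPM. Both encode miR-92a-3p, the sequence printed above, so their uniquely placed reads leave out an unknown part of that miRNA, and the shares of Mir92b and Mir25 hold for uniquely placed reads only. Mir32, an intronic miRNA with the same seed, was at 210.3 ± 31.1 CPM and Mir363, of the X chromosome cluster, at 184 ± 17.1 CPM, and these overlapped between the libraries. Mir367, of the pluripotency cluster of Mir302, had 0 counts, which allows up to 0.593 CPM in replicate 1 and 0.721 CPM in replicate 2 at a limit of 3 counts.

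**Figure D2:**
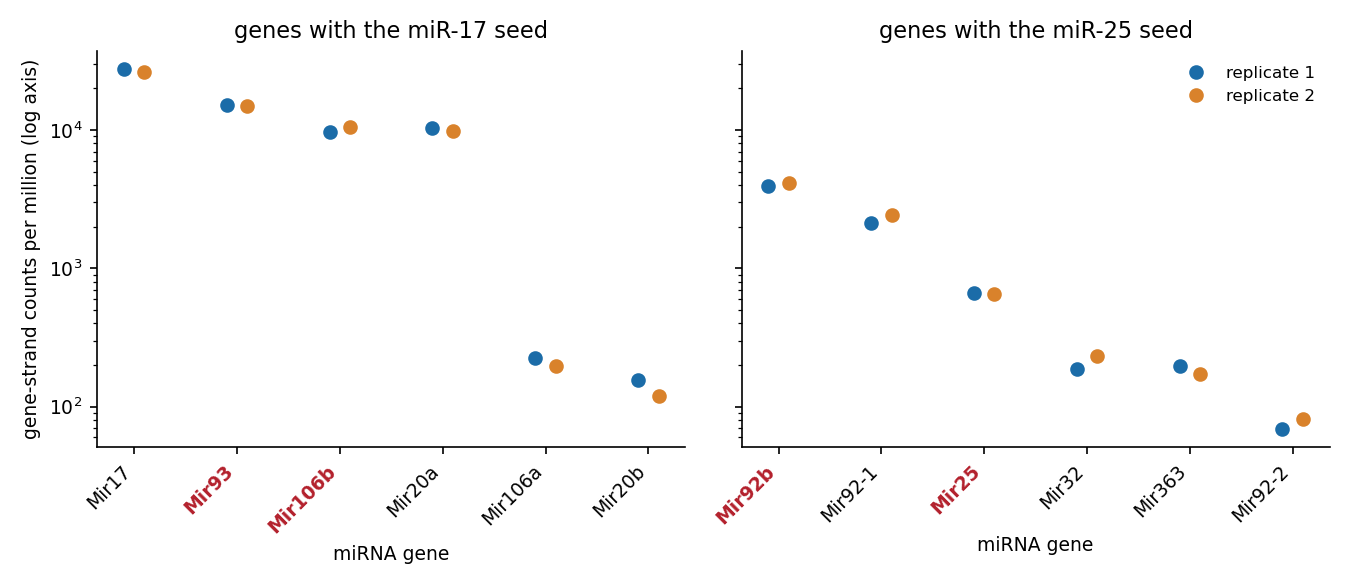
Level of the genes with the miR-17 seed (left) and with the miR-25 seed (right) in CPM on a log axis, with a point for each replicate, ordered by mean; names of the Mcm7 intron genes and Mir92b are in bold red. Mir367, with no count, is not drawn. Mir93 and Mir106b follow Mir17 on the left, at 15041 and 10093 CPM, and Mir92b leads on the right at 4025 CPM with Mir25 at 656 CPM behind Mir92-1.

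The paralogous clusters repeat the arrangement of genes with the miR-17 seed followed by genes with the miR-25 seed. In uniquely placed reads, the summed counts of the first kind were the higher in each cluster. In the Mcm7 intron the summed counts of Mir106b and Mir93 exceeded Mir25 by 37.5-fold in replicate 1 (exact 95% interval 36.2 to 38.8) and 39.1-fold in replicate 2 (37.7 to 40.7), with overlapping intervals. In the Mir17 to Mir92 cluster the sum of Mir17 and Mir20a exceeded Mir92-1 by 17.8-fold and 14.8-fold. In the X chromosome cluster the sum of Mir106a and Mir20b exceeded that of Mir92-2 and Mir363 by 1.44-fold and 1.25-fold. The last 2 comparisons rest on genes whose miR-92a-3p reads are not all uniquely placed, and the uncounted part could change their size or direction. These ratios are therefore not directly comparable with that of the Mcm7 intron, and the differences between clusters were not tested.

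The remaining comparison is between the 2 libraries, and it asks how closely the pools agreed for these genes. With TMM scaling (trimmed mean of M values), all 4 members were slightly higher in replicate 2, where 45.3% of the 466 genes tested were called in either direction and 23.4% were called higher. All 4 had passed the minimum of 10 summed counts. Each gene's pair of counts was compared by an exact binomial test, two-sided, with Benjamini-Hochberg adjustment over all genes tested, and it takes reads as independent, so it compares these libraries and no conditions. Mir106b had a log2 ratio of replicate 2 to replicate 1 of 0.27 (adjusted p = 1.64e-173) and Mir92b of 0.23 (adjusted p = 6.70e-50). Mir93 had a log2 ratio of 0.11 (adjusted p = 6.55e-42) and Mir25 also of 0.11 (adjusted p = 0.00941). As folds, these were 1.20 for Mir106b, 1.17 for Mir92b and 1.08 for both Mir93 and Mir25.

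The sign of Mir93 and Mir25 depended on the scaling. Without scaling factors every log2 ratio shifted by -0.14, and 14.4% of genes were called higher and 33.3% lower, 47.6% in all. Mir106b at 0.12 and Mir92b at 0.08 then stayed higher in replicate 2, Mir93 was called lower at -0.04 (adjusted p = 6.84e-06 by the exact binomial test), and Mir25 was at -0.04 (adjusted p = 0.49). Mir25 was also not called with TMM over all genes, where the other members were called higher. In that setting 45.7% of genes were called, 22.1% higher and 23.6% lower. With totals without the 20 most abundant genes Mir25 was again not called, and the other members were called higher. There 45.7% of genes were called, 20.6% higher and 25.1% lower. All 4 members were called higher with DESeq2 size factors, where 45.9% of genes were called and 23.4% called higher. The same held with no filter on low counts, where 29.4% of 703 genes were called and 15.6% called higher. It also held with the column that ignores strand, where 47.0% of 479 genes were called and 25.1% called higher. Across the 273 genes that reached 100 counts in each library, the median absolute log2 ratio was 0.24, and 65 of these genes differed by less than Mir93, 66 by less than Mir25, 129 by less than Mir92b and 143 by less than Mir106b.

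**Figure D3:**
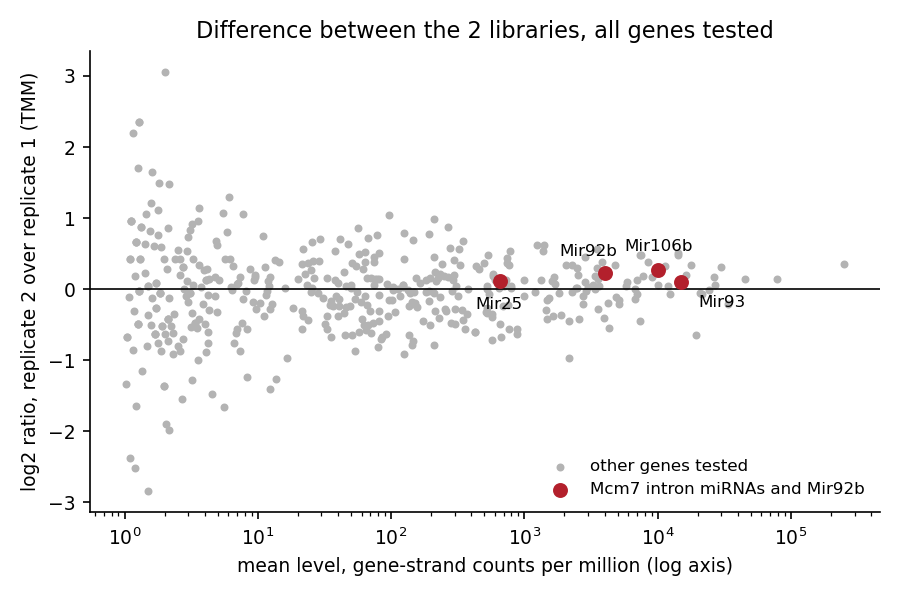
Log2 ratio of replicate 2 to replicate 1 after TMM scaling against the mean level in CPM (log axis) for the 466 genes tested, each gene a point. The Mcm7 intron genes and Mir92b, in red, lie between 0.11 and 0.27, inside the spread of genes at their level.

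The lists around the members were counted in the same way. Of the 6 miR-17 seed genes, 4 were called higher in replicate 2 and 1, Mir20b, lower, with a median log2 ratio of 0.06 beside 0.01 over all genes tested. Of the 6 tested miR-25 seed genes, 5 were called higher and 0 lower, and the median was 0.28. Without scaling factors these medians were -0.08 and 0.14, beside -0.14 over all genes tested. The calls were then 1 higher and 5 lower for the miR-17 seed and 3 higher and 1 lower for the miR-25 seed. Both lists include members, and the difference between the lists was not tested. In the Mir17 to Mir92 cluster 4 of 6 genes were called higher and 0 lower with TMM, beside 23.4% higher and 21.9% lower over all genes tested. Without scaling factors 1 was called higher and 3 lower, beside 14.4% and 33.3%. In the X chromosome cluster 1 of 6 genes was called higher and 1 lower with TMM, and 0 higher and 3 lower without scaling factors.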

How the data were processed

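Each library has a table of raw counts per gene, deposited in 3 columns (without strand, gene strand, opposite strand). The assembly was mm10 and the annotation GENCODE M4, per the deposited file descriptions. For the aligner, the counter and any trimming, the tool is not given in the sources used here. Rows of reads mapping to several loci (40.5% and 43.3% of all reads), unmapped reads (19.1% and 15.2%) and reads outside genes (2.50% and 2.82%) stayed out of totals and tests.

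Symbols came from GENCODE M21 by gene identifier, and RefSeq (GRCm38.p6) gave older symbols and sequences. TMM factors (edgeR 4.0.16, R 4.3.3) were computed on the 466 genes whose counts summed to 10 or more, and log2 ratios after adding 0.5 to each count. DESeq2 1.42.0 gave size factors as an alternative. Binomial tests and Clopper-Pearson intervals at 95% used SciPy 1.17.1, with an adjusted p under 0.05 as the threshold, and hairpins were folded with RNAfold 2.7.2. The genes named are the members, their seed lists and paralogous clusters, and the gene above and below each member by mean CPM; Mir6383 was added later. Of the cell type marker lists, the highest and lowest forebrain genes, the highest muscle gene, the endothelial gene and the genes at 0 are named. Members and lists were chosen with earlier results of these data known. With a single group, edgeR's quasi-likelihood test could not be fitted. Intervals cover counting error only, since the labels describe no molecular identifiers.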

Additional observations from a re-analysis of the deposited data

How the results depend on the processing

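Each member has at least 2696 counts per library, and the 2 pools limit what can be said of the spread. Of 102 recomputed values, 84 kept their direction and side of the threshold or, where untested, moved by less than the replicate SD or, for counts, by less than 1.5 times. Many of the 84 could not have moved, so their number is no measure of stability. With 2 replicates, leaving out either always stays within the SD. The column without strand leaves the ratios and shares unchanged, as their genes have no opposite-strand reads. Dropping the low-count filter leaves the members' log2 ratios unchanged. The values that did move follow. With unscaled totals the log2 ratios of Mir93 and Mir25 reversed to -0.037 and -0.036, the genes called higher fell from 109 to 67, those called lower rose from 102 to 155, and 2 members were called higher and 1 lower. Mir106b and Mir92b were still called higher, but at 0.12 in place of 0.27 and 0.08 in place of 0.23. Every log2 ratio shifts together under this scaling. With totals without the 20 most abundant genes, the log2 ratio of Mir93 was 0.057, still called, and that of Mir25 was 0.058 (adjusted p = 0.22), with 3 members called higher. The log2 ratio of Mir25 was 0.084 with TMM over all genes (adjusted p = 0.054), also with 3 members called higher, a setting chosen after seeing the data. With DESeq2 size factors, no filter on low counts or the column without strand, adjusted p for Mir25 lay between 0.0052 and 0.016. With all reads as the total, levels were 3792 for Mir106b, 5649 for Mir93, 247 for Mir25 and 1512 for Mir92b, because the total is larger. Per kilobase of gene they were 123083, 170922, 7815 and 48497, and the ratio of Mir25 to Mir93 was 0.0457 in place of 0.0436. The column without strand gave 645 CPM for Mir25. Leaving out each replicate, levels were 9658 to 10527 CPM for Mir106b, 14849 to 15234 for Mir93, 648 to 665 for Mir25 and 3911 to 4140 for Mir92b. No paired analysis was possible because both replicates belong to 1 group.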
